A study of Mus musculus with 4 samples.

Results

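Natural killer (NK) cells of the mouse heart were described in libraries of single cells from offspring whose dams had eaten either a high-fibre or a control diet. A cell was taken as an NK cell when Ncr1, Klrb1c, Klre1, Gzma and Eomes together gave at least 3 unique molecular identifiers (UMIs, each standing for 1 captured RNA molecule) from at least 2 of these genes. It could hold at most 1 UMI of Cd3e, Cd3d and Cd3g together, 1 of Cd79a, 3 of the C1q genes and 2 of Dcn, which kept T cells, B cells, macrophages and fibroblasts out. The rule was applied to barcodes with at least 1000 UMIs and at most 20% mitochondrial UMIs, and it found 171 cells among 21581 kept barcodes of 26765 deposited. They came as 62 and 39 cells from the high_fibre libraries 1 and 2, and as 56 and 14 cells from the control_diet libraries 1 and 2. Values for single libraries are given in that order throughout.

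All offspring were 6 weeks old, had been weaned onto the same standard chow at 3 weeks, and differed by the diet of the dam during pregnancy and lactation (high resistant starch against low). Digestion was by perfusion of the heart with collagenase IV at 2 mg/mL and dispase II at 1 mg/mL, and live, metabolically active, nucleated cells were sorted, so shares describe sorted cells and not the intact organ. Each diet had 2 libraries, and how many animals a library held, and of which sex, is not given in the labels. The p-values here thus rest on differences among libraries alone, and these can be technical.

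NK cells are innate lymphocytes that kill infected or transformed cells without a rearranged antigen receptor. They carry germline-encoded activating and inhibitory receptors, many encoded together in the NK gene complex, and the balance of their signals decides whether perforin and granzymes are released. Eomes and T-bet direct their development, and interleukin 15 sustains them. In the healthy heart they form a small part of the resident and circulating lymphocytes.

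The whole series gave 52221831, 66732143, 55754299 and 26375457 UMIs in kept barcodes. The NK cells held 275990, 160124, 293586 and 85390 UMIs in all. In the comparison with T cells 1 UMI was thus worth 3.35, 5.85, 3.09 and 10.9 CPM. In the comparison of diets it was worth 3.66, 6.26, 3.37 and 11.7 CPM. CPM is the UMI count scaled to the class total of the library and its normalization factor, which was set for each comparison. Raw CPM below leaves out that factor. The median NK cell had 4272 UMIs and 1683 genes, and the median T cell 5763 UMIs. Precision was therefore lowest in control_diet 2. Of the kept barcodes, 99 occurred in more than 1 library, and none of these was an NK cell.

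The genes that chose the cells are given as a description. Over all 171 cells, Klre1 had a UMI in 95.3%, Gzma in 93.0%, Ncr1 in 90.1%, Klrb1c in 87.1% and Eomes in 64.9%. The cells held a median of 66 UMIs of these genes (4 to 279), 85 cells showed all 5 genes, 61 showed 4, 17 showed 3 and 8 showed 2. Few cells lay near the threshold. No cell held exactly 3 UMIs and 1 held 4, while 7 barcodes just outside held 2 UMIs within the other limits. Another 26 barcodes met the NK counts but had at least 2 CD3 UMIs and were counted as T cells, and 12 failed a limit, 4 for C1q and 8 for Dcn.

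Perforin, encoded by Prf1, was not used to choose the cells and so checks the label. Prf1 stood at 1033, 1024, 961 and 1007 raw CPM in NK cells, and at 39.4, 22.8, 16.5 and 97.4 in T cells. The classes did not overlap in any library, and the NK libraries lay within a narrow range. With each cell thinned to 1000 UMIs, 64.9% of NK cells had a Prf1 UMI, against 3.01% of T cells and 0 of 2000 fibroblasts, which should lack it. Without thinning the shares were 91.2%, 10.8% and 0.05%, at median depths of 4272, 5763 and 12820 UMIs.

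**Figure D1:**
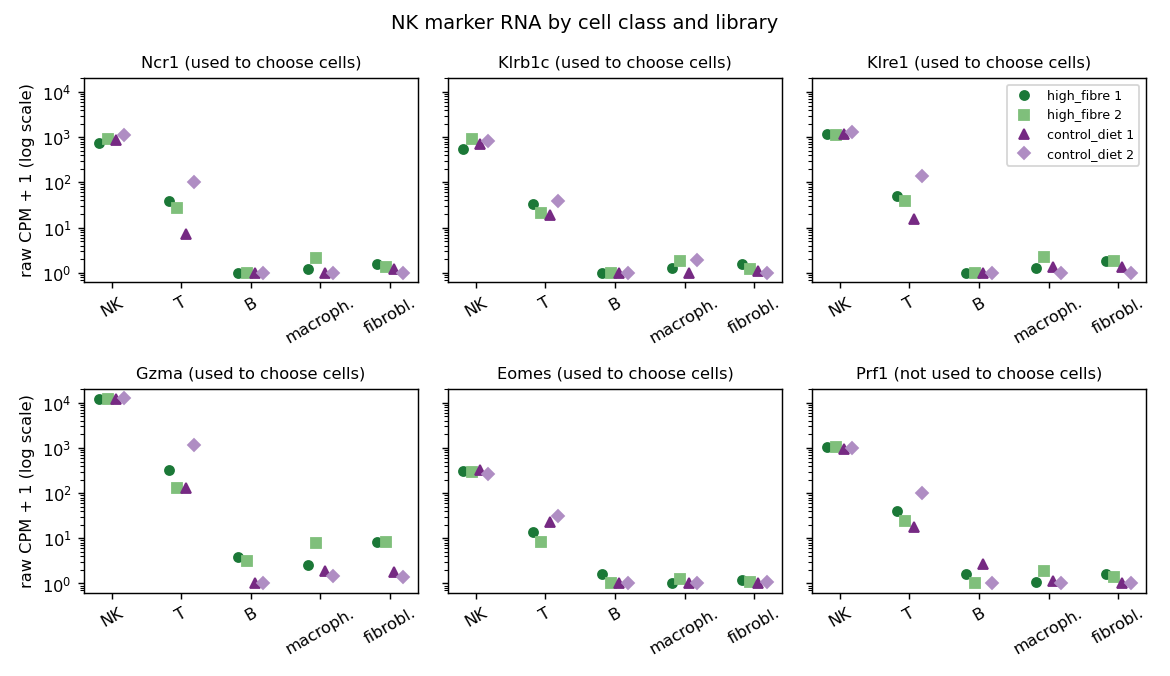
Raw CPM plus 1 (log scale) of the 5 genes that chose NK cells and of Prf1, by cell class, with 1 point per library. Prf1, which did not choose the cells, lies near 1000 in all 4 NK libraries and below 100 in every T cell library.

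NK cells were a small share of the sorted heart cells. It of kept barcodes was 1.04% (0.796% to 1.33%, exact binomial 95% interval, counting error only), 0.528% (0.376% to 0.722%), 0.989% (0.748% to 1.28%) and 0.547% (0.300% to 0.917%). The high_fibre and control_diet libraries overlapped fully, and the first library of each diet held the higher share. T cells stood at 2.59%, 1.78%, 2.47% and 1.52%, also higher in the first library of each diet. As a share of NK plus T cells, NK cells stood at 28.6%, 22.9%, 28.6% and 26.4%, and the exact intervals of all 4 libraries overlapped. With 2 libraries a diet an exact two-sided permutation test cannot reach the 0.05 threshold, so none was run on the shares.

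**Figure D2:**
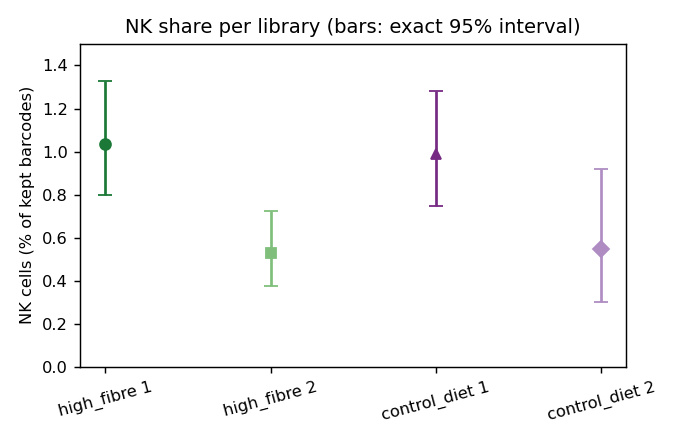
NK cells as a percentage of kept barcodes in each library, with exact binomial 95% intervals as bars. The first library of each diet lies near 1% and the second near 0.5%, and the diets overlap.

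The closest relatives in the heart were T cells, taken as barcodes with at least 2 CD3 UMIs and the same limits on Cd79a, C1q and Dcn (465 cells; 155, 131, 140 and 39). UMIs were summed per library and class, and NK cells were compared with T cells of the same library by the edgeR quasi-likelihood test with library as a block. The 13 genes that define the gates were left out. Of 3665 genes tested, 1044 (28.5%) had an adjusted p under 0.05, 530 higher in NK cells (14.5%) and 514 lower (14%). The median log2 fold over all genes tested was 0.00, and 622 of the 1044 calls were also made without each library in turn. Both classes were gated by marker UMIs, so genes that travel with the gate genes differ by construction and the test describes these gated cells. In 932 genes (25.4%) all 4 NK values lay above or below all 4 T cell values.

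**Figure D3:**
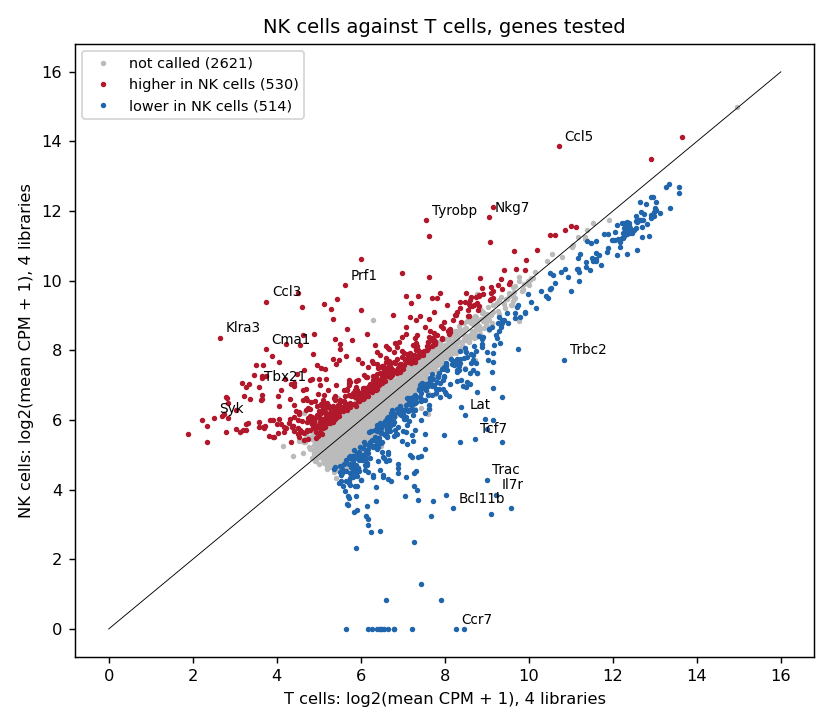
Mean CPM over 4 libraries in NK cells (vertical) against T cells (horizontal), both as log2(CPM + 1), for the 3665 genes tested. Genes higher in NK cells (530, red) include Ccl5, Nkg7, Tyrobp and Prf1, and genes lower in NK cells (514, blue) include Ccr7, Il7r, Bcl11b and Trbc2.

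RNAs of the killing machinery were higher in NK cells. Of 14 granule genes listed, 10 passed the filter on low counts, 8 were higher in NK cells and 0 lower, with a median log2 fold of 2.68. Prf1, the pore-forming protein that opens the target membrane, stood at 954, 960, 872 and 940 CPM in NK cells and at 42.6, 24.2, 17.5 and 109 CPM in T cells, a log2 fold of 4.63 (SE 0.45, adjusted p = 0.0038). Gzmb, the serine protease that enters through that pore, stood at 569, 737, 736 and 525 CPM against 59.1, 51.4, 3.29 and 20.9 CPM. Every NK library lay above every T cell library for both genes.

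The Gzmb log2 fold was 4.31 (SE 0.70, adjusted p = 0.0275), and it missed the threshold without high_fibre 1, high_fibre 2 or control_diet 2 (adjusted p of 0.0733, 0.121 and 0.109). Nkg7, a membrane protein of cytotoxic granules, stood at 2981, 3347, 3728 and 4450 CPM against 530, 496, 343 and 746 CPM, a log2 fold of 2.82 (SE 0.16, adjusted p = 5.01e-06). Ctsw, a cysteine protease of killer lymphocytes, had a log2 fold of 2.25, and Cst7, an inhibitor of such proteases, 2.42. Fasl, the ligand that triggers death through Fas, had 2.54. The serpins Serpinb9 and Serpinb6b, inhibitors of granule proteases, had log2 folds of 4.12 and 3.01. Srgn, the proteoglycan on which granule proteases are stored, was not called (639 ± 137 CPM in NK cells and 685 ± 90.2 CPM in T cells, SD, n = 4).

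Of the 171 NK cells, 112 held UMIs of both Prf1 and Gzmb, 44 of Prf1 alone, 6 of Gzmb alone and 9 of neither. After thinning to 1000 UMIs the numbers were 56, 55, 13 and 47. The granzymes Gzmc, Gzmk and Gzmm had a UMI in 4, 3 and 4 NK cells. They did not pass the filter on low counts.

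Prf1 (chromosome 10, 61297833 to 61304680, plus strand, GRCm38) and Nkg7 (chromosome 7, 43437073 to 43438249, plus strand) are protein-coding genes whose promoters are shown because the granule genes moved together and T-bet and Eomes bind the T-box core AGGTGTGA. The windows run from 250 bases before to 50 bases after the RefSeq start (GRCm38.p6). The match to that core is in capitals, and the Prf1 window held none.
Prf1 promoter, chr10:61297586-61297885, plus strand: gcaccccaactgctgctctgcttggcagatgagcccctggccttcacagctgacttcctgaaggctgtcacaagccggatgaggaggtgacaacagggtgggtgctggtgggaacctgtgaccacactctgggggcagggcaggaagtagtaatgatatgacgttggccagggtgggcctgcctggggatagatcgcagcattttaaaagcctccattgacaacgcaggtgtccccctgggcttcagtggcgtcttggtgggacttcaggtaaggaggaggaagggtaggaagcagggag
Nkg7 promoter, chr7:43436888-43437187, plus strand: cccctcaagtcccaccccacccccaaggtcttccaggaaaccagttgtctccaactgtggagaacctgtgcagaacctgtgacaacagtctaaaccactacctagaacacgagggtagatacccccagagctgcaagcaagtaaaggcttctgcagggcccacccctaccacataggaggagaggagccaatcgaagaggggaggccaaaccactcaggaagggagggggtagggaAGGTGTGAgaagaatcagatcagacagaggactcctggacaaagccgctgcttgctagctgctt
On both strands the core occurred in 9 of 409 promoters of NK-higher genes with an entry (2.20%) and in 4 of 380 of NK-lower genes (1.05%). Among all genes tested it occurred in 28 of 2910 (0.962%), and in 399 of 27025 genes with a promoter (1.48%). The Runx core TGTGGTTT occurred in 1.22%, 3.42%, 1.51% and 2.11% of the same sets. These are matches of letters and not binding sites.

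Receptors of the NK gene complex formed the second group. On chromosome 6 between 128609227 and 131247362 (GRCm38), the stretch that spans the 24 Klr genes of the count table, 17 genes were tested, 14 of them Klr genes. All 14 tested Klr genes were higher in NK cells, and the 3 others (Clec2i, Clec2d and Cd69) were not called. Klr genes that T cells barely express passed the filter through NK cells, so their direction was largely fixed beforehand. Klra3 had 276 UMIs in NK cells and 17 in T cells, and Klri2 206 and 26. The same limit holds for such genes in the receptor lists. The gate genes Klrb1c and Klre1 were not tested. Of 18 activating receptors and adaptors listed, 15 were tested, 13 were higher and 0 lower, with a median log2 fold of 3.72. Of 16 inhibitory receptors, 10 were tested, 9 were higher and 0 lower, with a median of 3.51. Klr genes hold near-identical copies, among which counts can be split, so single values of Klra and Klrc genes are uncertain.

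Klrk1, which encodes the activating receptor NKG2D for stress-induced ligands, stood at 1134, 1381, 1070 and 1203 CPM in NK cells and at 117, 130, 61.4 and 193 CPM in T cells. Its log2 fold was 3.39 (SE 0.18, adjusted p = 2.86e-10). Klrd1, which encodes CD94, the partner of the NKG2 receptors, had 2.55. Its inhibitory partner Klrc1 (NKG2A) had 3.57 and its activating partner Klrc2 (NKG2C) 4.27. Klrg1, an inhibitory receptor for cadherins, had 4.23. In these genes too every NK library lay above every T cell library.

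The Ly49 receptors, encoded by the Klra genes, bind classical class I molecules and are known to be expressed by chance on overlapping subsets of NK cells. Klra8 (the activating Ly49H) stood at 596, 796, 415 and 634 CPM in NK cells and at 9.46, 4.54, 0 and 79.6 CPM in T cells. Klra4 (the activating Ly49D) stood at 542, 1200, 708 and 787 CPM against 23.6, 1.51, 15.3 and 46.1 CPM. In both the highest T cell value was that of control_diet 2, the library with the fewest T cells.

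The log2 folds were 5.59 for Klra8 (SE 0.87, adjusted p = 0.0244) and 5.41 for Klra4 (SE 0.67, adjusted p = 0.0127). The inhibitory Klra3 had 5.53 (SE 0.27, adjusted p = 3.97e-17), Klra7 3.45, Klra9 3.35 and Klra1 2.58. Klra8 missed the threshold without high_fibre 1, high_fibre 2 or control_diet 1 (adjusted p of 0.129, 0.118 and 0.0949), and Klra4 without high_fibre 1 or control_diet 1 (0.0615 and 0.0874). Klra7 missed it without high_fibre 2, control_diet 1 or control_diet 2 (0.16, 0.18 and 0.0715), Klra9 without high_fibre 1, high_fibre 2 or control_diet 2 (0.0651, 0.105 and 0.086), and Klra1 without high_fibre 2 (0.0695). The folds kept their direction in each of these fits.

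Single cells differed in which Ly49 genes they showed. Counting Klra1, Klra3, Klra4, Klra7, Klra8 and Klra9, 17 NK cells had a UMI of none, 23 of 1 gene, 39 of 2, 55 of 3, 30 of 4, 4 of 5 and 3 of all 6. Of 465 T cells, 421 had none. Klra4 and Klra8 were both seen in 52 NK cells, Klra4 alone in 27, Klra8 alone in 37 and neither in 55. After thinning to 1000 UMIs the numbers were 33, 30, 31 and 77, so absence of a UMI in a cell depends on depth.

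Adaptors that couple these receptors to kinases were higher in NK cells. Tyrobp, which encodes DAP12, the signalling partner of the activating Ly49 receptors, stood at 2750, 3277, 3081 and 4482 CPM in NK cells and at 112, 209, 83.3 and 348 CPM in T cells, a log2 fold of 4.37 (SE 0.33, adjusted p = 0.0023). Fcer1g, the adaptor of the Fc receptor and NKp46, had 3.72, and Hcst, which encodes DAP10, the partner of NKG2D, 0.69. The NK libraries lay above the T cell libraries for all 3 adaptors.

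Among 14 tested genes of receptor signalling (of 18 listed), 5 were higher and 2 lower in NK cells, with a median log2 fold of 0.04. Syk, the kinase recruited by DAP12, had a log2 fold of 3.46, and Lat2, a linker used outside the T cell receptor, 3.98. Lat, the linker of the T cell receptor, fell by 2.33 on the log2 scale. Zap70 stood at 61.5 ± 12.02 CPM in NK cells and 63.2 ± 10.7 CPM in T cells, and Lck at 336 ± 30.6 and 388 ± 23.9 CPM (SD, n = 4). Neither was called.

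**Figure D4:**
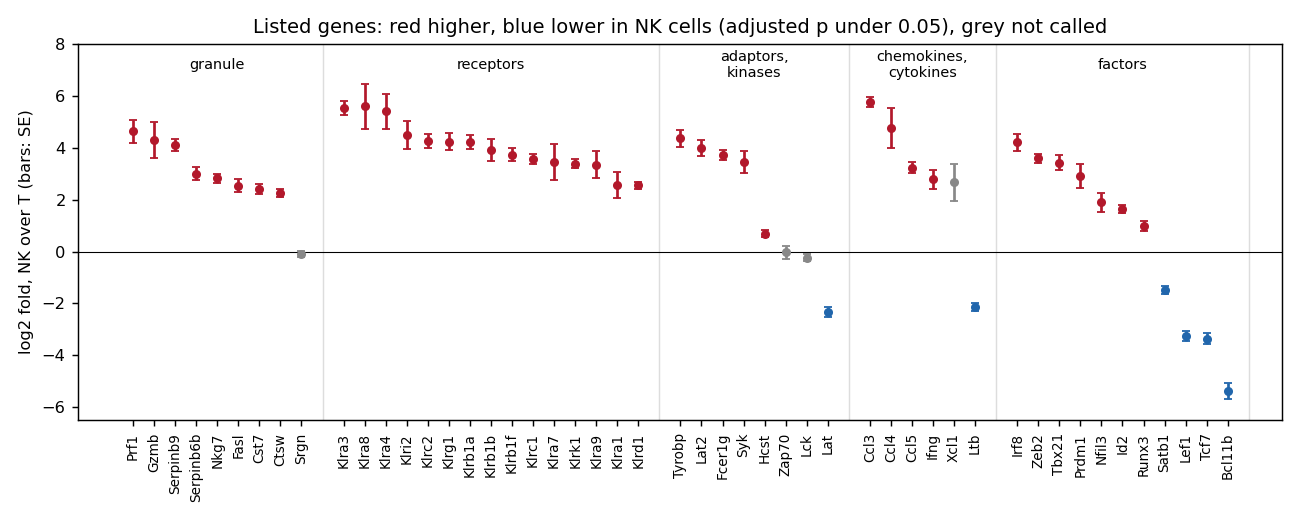
Log2 fold of NK cells over T cells (bars: SE) for named granule genes, receptors, adaptors and kinases, chemokines and cytokines, and transcription factors. Granule genes other than Srgn and all receptors shown lie above 0, while Lat, Ltb, Satb1, Lef1, Tcf7 and Bcl11b lie below.

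Of 10 chemokines and cytokines listed, 6 were tested, 4 were higher in NK cells and 1 lower, with a median log2 fold of 3.01. Ccl5, a chemokine of killer lymphocytes, stood at 14762, 14166, 13707 and 16837 CPM in NK cells and at 1250, 1685, 1114 and 2635 CPM in T cells, a log2 fold of 3.24 (SE 0.22, adjusted p = 0.0019). Ccl3, an inflammatory chemokine, stood at 522, 772, 1030 and 361 CPM against 10.6, 16.6, 14.2 and 8.38 CPM, a log2 fold of 5.76 (SE 0.19, adjusted p = 1.39e-21). Ccl4 was higher by a log2 fold of 4.76 (SE 0.76, adjusted p = 0.0265) and was not called without high_fibre 1, high_fibre 2 or control_diet 2 (adjusted p of 0.11, 0.132 and 0.0734).

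Ifng, the macrophage-activating cytokine of type 1 immunity, stood at 398, 298, 328 and 131 CPM in NK cells and at 98.1, 45.4, 17.5 and 16.8 CPM in T cells, a log2 fold of 2.79 (SE 0.36, adjusted p = 0.0017). Xcl1, which attracts cross-presenting dendritic cells, stood at 425, 433, 529 and 481 CPM against 94.6, 172, 25.2 and 16.8 CPM. The classes did not overlap for Xcl1, but its log2 fold of 2.67 was not called (adjusted p = 0.0858). It was called by DESeq2 (3.09, adjusted p = 0.00037) and against T cells with no UMI of the NK genes (5.49, adjusted p = 3.41e-10). Ltb, which encodes lymphotoxin beta, fell by 2.15 on the log2 scale. Tnf and Csf2 had a UMI in 3 and 1 NK cells.

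Receptor chains for interleukin-15, interleukin-12 and interleukin-18 were higher in NK cells, and the interleukin 7 receptor was lower. Of 10 tested cytokine receptors of 14 listed, 5 were higher and 3 lower, with a median log2 fold of 0.67. Il2rb, the chain shared by the interleukin 2 and 15 receptors, had a log2 fold of 2.27, Il12rb2 3.44, Il18r1 2.26, Il18rap 3.09 and Ifngr1 1.28. Il7r stood at 20.1, 0, 34.0 and 0 CPM in NK cells and at 544, 744, 549 and 557 CPM in T cells, and fell by 4.95 on the log2 scale (SE 0.42, adjusted p = 0.0001). Il21r and Tgfbr2 fell by 1.14 and 1.07. Il2rg, the common gamma chain, was not called (307 ± 58.0 and 295 ± 54.7 CPM).

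Transcription factors differed in both directions. Of 19 tested of 21 listed, 7 were higher and 9 lower, with a median log2 fold of −0.20. Tbx21, which encodes T-bet, stood at 90.3, 158, 111 and 131 CPM in NK cells and at 9.46, 18.2, 7.67 and 8.38 CPM in T cells, a log2 fold of 3.42 (SE 0.29, adjusted p = 1.4e-11). Irf8 had 4.21, Zeb2, which acts with T-bet in terminal maturation, 3.60, Prdm1 2.92, Nfil3, needed early in NK development, 1.90, Id2 1.64 and Runx3 0.99. Eomes, a gate gene, and Tbx21 were both seen in 44 NK cells, Eomes alone in 67, Tbx21 alone in 22 and neither in 38.

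Bcl11b, which commits precursors to the T lineage, stood at 3.35, 11.7, 3.09 and 21.9 CPM in NK cells and at 299, 304, 305 and 268 CPM in T cells, and fell by 5.39 on the log2 scale (SE 0.31, adjusted p = 1.43e-15). Tcf7 and Lef1, factors of naive T cells and of immature NK cells, fell by 3.35 and 3.25. Satb1 fell by 1.49, Id3 by 1.84, Ikzf2 by 1.94 and Ets1 by 0.76. No library overlapped between the classes for these 7 genes.

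Homing and adhesion genes followed. Of 21 tested of 23 listed, 12 were higher and 3 lower, with a median log2 fold of 0.87. Ccr7 (chromosome 11, 99144196 to 99155077, minus strand), the receptor that guides lymphocytes into lymph nodes, had no UMI in NK cells and 792 in T cells. Against the 3 UMIs that a count of 0 allows over all NK cells (3.68 raw CPM), Ccr7 was at least 75.4-fold lower. S1pr1 and Gpr183 fell by 2.89 and 3.70 on the log2 scale. S1pr5, the receptor by which NK cells leave bone marrow and nodes, had a log2 fold of 4.10, and Ccr2, which binds the monocyte chemokines, 2.30.

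The integrins Itga2 (CD49b), Itgam (CD11b), Itgal and Itgb2 had log2 folds of 3.97, 4.53, 1.497 and 1.58. Itgam and Cd27 mark stages of NK maturation, with CD27 lost as CD11b is gained. Of 171 NK cells, Itgam alone was seen in 58, Cd27 alone in 34, both in 14 and neither in 65, and after thinning in 24, 19, 0 and 128. In the maturation list 10 of 11 genes were tested, 6 were higher and 3 lower, with a median of 2.38. Klrg1, Zeb2, S1pr5, Itgam, Spn and Cma1 were higher, and Cd27, Emb and Thy1 fell by 1.28, 1.79 and 1.54.

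Cma1, which encodes mast cell protease 5, stood at 288, 275, 213 and 262 CPM in NK cells and at 1.18, 0, 6.57 and 41.9 CPM in T cells, a log2 fold of 5.22 (SE 0.80, adjusted p = 0.0187). It was not called without control_diet 1 (adjusted p = 0.121). A Cma1 UMI was seen in 81 NK cells (47.4%), 5 T cells (1.08%) and 0.35% of 2000 fibroblasts. The other mast cell markers listed were at or near 0, Cpa3 and Mcpt4 with no UMI in any NK cell and Kit with a UMI in 2 NK cells. Cma1 is also in the maturation list.

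Group 1 innate lymphoid cells that are not NK cells share Ncr1 and Klrb1c with them and are known in tissues by Itga1 (CD49a), Cxcr6 and Il7r. Of 9 tested genes of 12 associated with these cells, 0 were higher and 4 lower in NK cells than in T cells, with a median log2 fold of −1.09. The 4 were Il7r, Gpr183, Inpp4b and Ltb, while Itga1, Cxcr6, Tmem176a, Tmem176b and Xcl1 were not called. T cells express these 4 genes too. A lower level than in T cells therefore cannot tell whether the gated cells include such innate lymphoid cells. Xcl1 was called higher in NK cells by DESeq2 (log2 fold 3.09, adjusted p = 0.00037). Itga1 had a UMI in 14 NK cells and Itga2 in 64, with 1 cell showing both. Cxcr6 and Il7r had a UMI in 8 and 7 cells, with 1 cell showing both. After thinning, an Itga1 UMI was seen in 4.09% of NK cells and 7% of fibroblasts.

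RNA of T cell identity was lower in NK cells. Of 11 tested genes of 15 listed, 0 were higher and 10 lower. The median log2 fold was −6.06, or −4.45 with the 4 genes at 0 set to their bound. Cd4, Cd5, Cd6 and Themis had no UMI in NK cells and were at least 22.0, 21.9, 18.3 and 35.3-fold lower. These genes and Cd8a passed the filter on low counts through T cells, so their direction was largely fixed beforehand. Cd8a had 1 UMI in NK cells and 409 in T cells, a ratio of T cells to NK cells of 117 (20.9 to 4628, exact 95% counting interval). Trac, the constant region of the T cell receptor alpha chain, fell by 4.83 on the log2 scale (15 UMIs in NK cells), and Cd8b1 fell by 6.06 (6 UMIs, all in high_fibre 2). Of 171 NK cells, 170 had no Cd8a or Cd8b1 UMI, so the UMIs of both genes lay in the remaining cell.

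The beta chain constant regions had smaller differences. Trbc1 stood at 207, 281, 328 and 241 CPM in NK cells and at 667, 889, 1099 and 771 CPM in T cells, and fell by 1.70 on the log2 scale. A Trbc1 UMI was seen in 55.0% of NK cells and 57.2% of T cells, against 0.70% of fibroblasts. Trbc2 fell by 3.17 and was seen in 26.9% of NK cells. Trac and Trbc2 were found together in 2 NK cells. Trbc1 and Trbc2 are close copies, between which reads can be split. Trdc, the delta constant region, was seen in 31.0% of NK cells and 4.52% of T cells and was not called (log2 fold 1.38, adjusted p = 0.238).

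Among the 12 largest rises with a mean of at least 50 CPM, the genes in no list were Khdc1a (log2 fold 5.06, adjusted p = 0.0397) and Adamts14 (4.42, adjusted p = 4.82e-08). Khdc1a was not called without high_fibre 1, high_fibre 2 or control_diet 1 (adjusted p of 0.0662, 0.0887 and 0.18). All 12 largest falls were genes without a UMI in NK cells, tested through T cells alone, so their direction was fixed beforehand. Beside Ccr7, Cd4, Cd5 and Themis these were Dapl1, Fam169b, Slfn1, Trat1 (a T cell receptor adaptor), Il6ra, Nsg2, Tdrp and Ass1. They were at least 70.1, 26.9, 25.7, 24.9, 24.4, 20.3, 18.5 and 19.0-fold lower in that order.

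CD8 T cells gave a further comparison (168 cells with a Cd8a or Cd8b1 UMI). Against them 857 of 3520 genes were called. The Prf1 log2 fold was 5.06, Gzmb 4.76, Nkg7 2.40, Ccl5 3.17, Tyrobp 6.13, Tbx21 4.17, Bcl11b −5.25 and Il7r −4.98, all called. Against all T cells the folds of Prf1 (4.63), Tyrobp (4.37), Gzmb and Tbx21 were smaller, and those of Nkg7 and Ccl5 larger. These CD8 T cells were thus not nearer to NK cells in every gene. Among 111 of the 115 genes checked across settings that could be fitted here, Runx3 lost its call (0.42, adjusted p = 0.148), and Xcl1 and Trdc gained one (6.17 and 3.42).

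Stress, interferon and metabolic genes were also compared. Of 19 immediate early and stress genes, 5 were higher (Fos, Fosb, Dusp1, Ier5 and Btg2, log2 folds of 0.72, 0.79, 0.60, 0.53 and 0.41) and 0 lower, with a median of 0.12. NK and T cell libraries overlapped for all 5. Against T cells chosen by CD3 alone, with no limit on other lineages, Fos and Dusp1 turned direction (−0.05 and −0.0032) and none of the 5 was called. Of 14 interferon response genes, 7 were lower and 2 higher (Irf7 and Gbp7), with a median of −0.72, and Ifi27l2a fell by 4.02. Of 8 genes of glycolysis and growth, 2 were higher (Tpi1 and Slc3a2) and 0 lower.

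Of 12 cell cycle genes listed, 5 were tested, 2 were lower in NK cells (Mki67 and Top2a) and 0 higher, with a median log2 fold of −0.45. Mki67, a marker of dividing cells, had a UMI in 11 of 171 NK cells and Top2a in 21, with 4 cells showing both. Mki67 stood at 10.0, 5.85, 71.2 and 0 CPM in NK cells and at 59.1, 71.1, 103 and 0 CPM in T cells, so the classes overlapped. Its log2 fold of −1.34 was called (adjusted p = 0.0145), but not by DESeq2 (0.0867) or without high_fibre 1 or high_fibre 2 (0.104 and 0.0546). Top2a fell by 1.02 (adjusted p = 0.0213) and was not called by DESeq2 (0.231), without high_fibre 2 (0.0839) or without control_diet 1 (0.156).

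Receptors for short-chain fatty acids, which gut bacteria make from fibre, were looked for because of the diet. Ffar2, Ffar3, Hcar2 and the transporter Slc5a8 had no UMI in any of the 171 NK cells, which allows a share of cells with a UMI of up to 1.75% (3 cells, counting error only). Slc16a1 and Slc16a3, which encode lactate and short-chain fatty acid transporters, had a UMI in 6 and 3 cells. None of these 6 genes passed the filter on low counts.

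The diets were compared in NK cells over 2 against 2 libraries. Of 3367 genes tested by edgeR, 9 had an adjusted p under 0.05 (0.267%), all higher in high_fibre, and 216 had an unadjusted p under 0.05. A gene low in 1 diet could pass the filter on low counts through the other diet alone, which largely fixed its direction. DESeq2 called 1 gene, Fabp4. In 1211 genes (36%) the libraries of the diets did not overlap. No gene in the lists of granule genes, receptors, adaptors, chemokines and cytokines, or transcription factors was called. Prf1 lay at 1033 and 1024 raw CPM in high_fibre and at 961 and 1007 in control_diet.

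The 9 genes called were Fabp4, Ly6a, Id1, Cavin2, Cxcl12, Mgp, Hsph1, Dnajb1 and Malat1. Fabp4, a fatty acid binding protein of capillary endothelium, stood at 817, 782, 226 and 140 CPM, a log2 fold of 2.02 (SE 0.26, adjusted p = 2.43e-05). Ly6a, which encodes the surface antigen Sca-1, stood at 172, 138, 27.0 and 11.7 CPM (2.73, adjusted p = 0.0037), and Cavin2, a caveolae protein, at 95.3, 81.4, 16.9 and 11.7 CPM (2.47, adjusted p = 0.0434). In control_diet 2 each of these values was 1 UMI. Both high_fibre libraries lay above both control_diet libraries in each of the 9 genes. Ly6a, Id1, Cavin2, Cxcl12 and Mgp were low in both control_diet libraries and passed the filter on low counts through high_fibre. For these genes the direction was thus largely fixed beforehand.

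Cxcl12, a chemokine of endothelial and stromal cells, had a log2 fold of 2.24, Mgp, a matrix protein, 1.98, and Id1, a target of bone morphogenetic protein signalling in endothelium, 37 UMIs against 2. For Id1 that is a ratio of 16.1 (4.15 to 138, exact 95% counting interval).

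UMIs of Fabp4, Id1, Cxcl12 and Cavin2 lay mostly in few cells, and those of Ly6a and Mgp less so. Ly6a and Mgp had a UMI in 19 and 42 NK cells. Mgp was also high in fibroblasts (8127, 8550, 7504 and 8826 raw CPM). Of 171 NK cells, 8 held more than 2 UMIs of 8 other endothelial and mural genes (5, 1, 2 and 0 by library). Those 8 cells held 82.9% of Fabp4 UMIs, 89.7% of Id1, 89.4% of Cxcl12, 84.4% of Cavin2, 56.4% of Ly6a and 48.9% of Mgp. Without them Fabp4 stood at 92.1, 163, 50.4 and 141 raw CPM, its log2 fold was 0.70 (adjusted p = 0.885), and the diets overlapped. The other 5 no longer passed the filter on low counts.

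Over all NK cells the endothelial list (Cdh5, Kdr, Egfl7, Cldn5, Esam, Fabp4 and Pecam1) summed to 1083, 1093, 422 and 164 raw CPM. In T cells it summed to 1124, 1163, 1738 and 250.9. Among NK cells with no UMI of these genes (37, 18, 34 and 7 cells), 0 of 1768 genes were called by edgeR, with 69 at an unadjusted p under 0.05. Fabp4 is one of the genes that removed cells there, so its absence was set by the limit. The folds of Dnajb1, Hsph1 and Malat1 were no smaller, at 2.40, 1.83 and 0.88. Whether NK cells themselves made these RNAs was not tested.

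**Figure D5:**
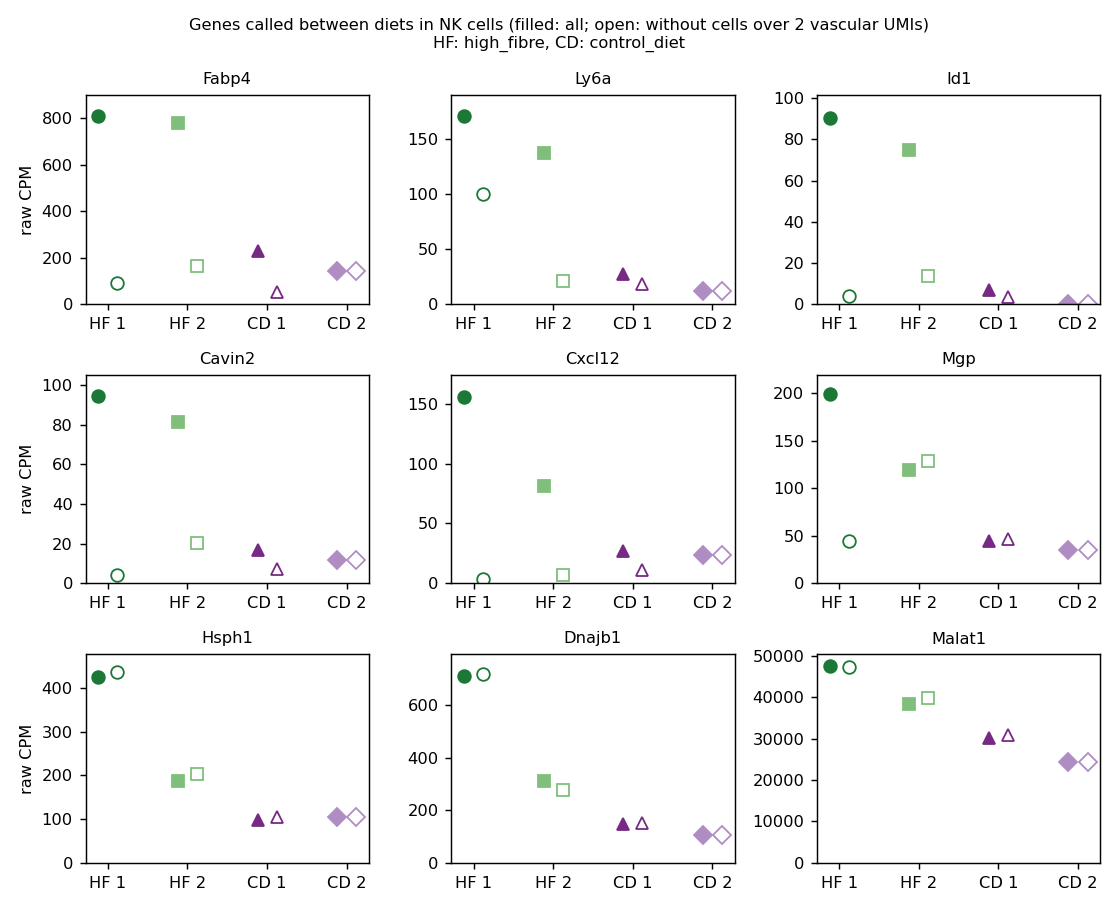
Raw CPM of the 9 genes called between diets, per library, in all NK cells (filled) and without the 8 cells holding over 2 vascular UMIs (open). The open high_fibre points of Fabp4, at 92.1 and 163, lie far below the filled ones, while those of Hsph1, Dnajb1 and Malat1 stay close to them.

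The heat shock genes were Hsph1, a nucleotide exchange factor of HSP70, and Dnajb1, an HSP40 co-chaperone. Hsph1 stood at 429, 188, 97.8 and 105 CPM (log2 fold 1.68, SE 0.36, adjusted p = 0.0434), and Dnajb1 at 718, 313, 148 and 105 CPM (1.97, adjusted p = 0.0498). The first high_fibre library was the highest for both, and without it neither was called (adjusted p of 0.962 and 0.144, log2 folds of 0.92 and 1.21). Other cells of that library were high too. Dnajb1 stood at 583, 239, 155 and 120 raw CPM in T cells and at 794, 346, 334 and 218 in macrophages.

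Of the 19 immediate early and stress genes, 18 had a diet log2 fold above 0 in NK cells, with a median of 0.49, and 2 were called. Over all genes tested the median was −0.01. Their summed level was 20896, 12253, 12753 and 8256 raw CPM in NK cells and 14766, 10259, 9490 and 7289 in T cells. The high_fibre 2 and control_diet 1 libraries lay close together in NK cells, and the largest value was again that of high_fibre 1. In the interferon response list 11 of 12 genes tested had a diet log2 fold above 0 in NK cells, with a median of 0.48. The 1 called was Ly6a, with 56.4% of its UMIs in the 8 cells over 2 vascular UMIs. The list summed to 2076, 1686, 1284 and 1312 raw CPM in NK cells and 2603, 2855, 2326 and 2333 in T cells. In fibroblasts it ran the other way, at 3189, 3612, 3936 and 3911.

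Malat1, a nuclear long non-coding RNA, stood at 48064, 38535, 29771 and 24208 CPM (log2 fold 0.68, SE 0.13, adjusted p = 0.0295). It was not called without high_fibre 1 (adjusted p = 0.122) or control_diet 2 (0.744). In T cells it stood at 30729, 30585, 26153 and 30799 raw CPM. Without high_fibre 1, Fabp4 alone of the 9 was called, and without control_diet 1, 2 of the 9.

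No gene was called lower in high_fibre. The 5 with the smallest p in that direction, none called, were Nme1 (log2 fold −0.91, adjusted p = 0.309), Ppdpf (−1.34, 0.309), Hist1h1b (−3.04, 0.313), Ranbp1 (−0.94, 0.313) and Hnrnpd (−0.89, 0.313). In the glycolysis list 0 of 9 genes tested had a log2 fold above 0, with a median of −0.30, and 0 were called. Xist, made from the inactive X chromosome of females, stood at 315, 487, 310 and 527 raw CPM in NK cells, and the Y-linked Ddx3y at 68.8, 56.2, 40.9 and 0. Over all kept barcodes Xist stood at 283, 586, 737 and 437 raw CPM and Ddx3y at 72.7, 40.4, 29.1 and 43.1. There high_fibre 1 had the lowest Xist and the highest Ddx3y, and control_diet 1 the highest Xist and the lowest Ddx3y. The ratio of these differed between libraries, and its part in the diet values was not tested.

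The diet difference in NK cells was also set against that in T cells of the same libraries, as an interaction of class and diet. Of 4637 genes, 22 were called (0.474%), 14 with a higher (0.302%) and 8 with a lower (0.173%) difference in NK cells. Lgals1, which encodes galectin 1, stood at 2402, 2042, 2613 and 2530 raw CPM in NK cells and at 673, 702, 310 and 326 in T cells. In NK cells the high_fibre libraries lay just below the control_diet libraries, and in T cells well above them (difference of log2 folds −1.30, SE 0.20, adjusted p = 7.28e-05).

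S100a6 and Xcl1 showed the same form, with differences of −1.95 (adjusted p = 2.87e-06) and −2.73 (adjusted p = 6.24e-06). These 3 genes were also called by DESeq2 and by edgeR without high_fibre 1, and no other gene was. With cells thinned to 1000 UMIs, S100a6 was called (adjusted p = 0.0152), but not Xcl1 (0.181) or Lgals1 (0.192). Without cells holding an endothelial UMI none of the 3 was called (Xcl1 0.119, the others 1), at differences of −2.81 for Xcl1, −2.06 for S100a6 and −1.18 for Lgals1. The 14 positive differences included Id1, Ly6a, Ly6c1, Gng11, Cavin2, Fabp4 and Cxcl12. With both classes limited to cells of at most 2 vascular UMIs, 9 genes were called, 1 higher and 8 lower, of which 6 were among the 22. Gzmb (adjusted p = 0.844), Cd226 (0.16) and Ifng (0.0967) were not.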

How the data were processed

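The authors deposited whole-number UMI counts per gene and barcode for 4 heart libraries. Cell Ranger 3.1.0 and the mm10 build are named, per the submitters' processing notes. Per the labels, the 10x 3′ v2 kit was used. The files held 31053 genes. No cell annotation was used here: classes were set by marker UMIs, and no doublet caller was run. The lineage limits and a limit of 2 vascular UMIs stood in for one. Members, gene lists and tests were chosen with earlier results of these data known.

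Counts were summed per library and class and tested with edgeR 4.0.16 (R 4.3.3; TMM, filterByExpr at a minimum count of 10, robust quasi-likelihood), with Benjamini-Hochberg adjustment over all genes tested and a threshold of 0.05. DESeq2 1.42.0 was an alternative. The text names genes of the lists, the 12 largest rises and falls between NK and T cells with the higher mean at or above 50 CPM and 1 direction in all 4 libraries, the genes called between diets, and 5 uncalled ones. The fits were tested on simulated data with known folds. Shares of cells with a UMI are unthinned unless cells are said to be thinned to 1000 UMIs (seed 11), and 2000 fibroblasts gave the background. Exact binomial intervals are at 95% and cover counting error only. Gene coordinates are from GENCODE M21 on GRCm38, 1-based. Python 3.11.15, scipy 1.17.1 and matplotlib 3.10.9 were used. A few listed genes are not reported here.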

Additional observations from a re-analysis of the deposited data

Results flagged for a closer look

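In 22 genes the diet difference in NK cells differed from that in T cells by the edgeR interaction test (log2 fold of high_fibre over control_diet in NK cells minus that in T cells, adjusted p from 2.87e-06 to 0.0415). The 8 differences below 0 were Xcl1 −2.73, S100a6 −1.95, Lgals1 −1.30, AC163354.1 −4.00, Gzmb −3.01, Tmem176b −2.50, Cd226 −1.94 and Ifng −1.74. Gzmb stood at 616, 787, 811 and 562 raw CPM in NK cells and at 54.7, 48.4, 3.09 and 18.7 in T cells, and Ifng at 431, 319, 361 and 140 against 90.8, 42.7, 16.5 and 14.98. The T cell counts behind both are small.

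The 14 differences above 0 were Id1 4.97, Tcf15 8.22, Ly6a 2.49, Ly6c1 2.39, Gng11 2.82, Cd81 2.18, Cavin2 2.75, Tm4sf1 3.42, Tcim 3.96, Cst3 1.57, Irf8 1.51, Fabp4 2.05, Cma1 4.30 and Cxcl12 2.34. Tcf15 had no UMI in the NK cells of either control_diet library, so its fitted value depends on the prior count and is no bound. Irf8 stood at 938, 575, 944 and 621 raw CPM in NK cells and at 18.6, 21.4, 70.1 and 45.0 in T cells. Cma1 stood at 312, 293, 235 and 281 in NK cells and at 1.09, 0, 6.19 and 37.5 in T cells. The T cell values of Cma1 rest on 17 UMIs in all. Its difference moved to 3.275 without control_diet 2 and to 5.876 without high_fibre 1. In NK cells the diets overlapped for Irf8, and for Cma1 both high_fibre values lay above both control_diet values.

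Single libraries set many of these sizes. Without control_diet 1, Fabp4 moved to 0.24, Cst3 to 0.24, Cxcl12 to 0.81, Cavin2 to 1.41, Gzmb to −1.08, Ifng to −0.65 and Cd226 to −1.18, none of them called. Tcf15 moved to 5.08 there, and AC163354.1, Cd81, Gng11 and Tm4sf1 to −7.63, 8.57, 8.16 and 8.13. Without high_fibre 1, Irf8 moved to 0.999 and was not called. Of the 22 calls, 7 were also made without control_diet 1 and 3 without high_fibre 1.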

How the results depend on the processing

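NK against T cells gave 1044 calls, 621 with DESeq2 and 340 with cells thinned to 1000 UMIs (779 genes tested), and 804 to 1172 without 1 library. Other settings lay within 1.5 times. Of 115 genes named in this comparison, 108 were called. For 86 of these no call was lost in the same direction in the 14 settings, where they could be fitted (65 of the 115 when thinned). The 86 include Fos, which changed sign and lost its call against T cells chosen by CD3 alone (adjusted p = 0.939 by edgeR). Log2 folds that changed sign were small: Srgn −0.26 to 0.018 without 1 library, 0.062 thinned and 0.0057 against T cells chosen by CD3 alone; Zap70 −0.11 to 0.053 without 1 library, 0.18 by CD3 alone and 0.056 against T cells without NK UMIs; and, by CD3 alone, Lck 0.088, Fos −0.050 and Dusp1 −0.0032. Diet in NK cells gave 9 calls, 1 with DESeq2, 15 with no filter on low counts, 1 thinned, 3 with the stricter NK gate, 2 with at most 2 vascular UMIs per cell, 0 without endothelial UMIs (added after the data were seen) and 6 to 23 without 1 library. With the repeat numbers of the labels as a replicate block 35 genes were called (31 higher, 4 lower). The labels give these numbers no shared animal, litter or day, and deviations of same-numbered libraries correlated at 0.11 over 3367 genes. The difference of diet effects gave 22 calls, 3 with DESeq2, 4 thinned, 9 with at most 2 vascular UMIs, 0 without endothelial UMIs (86 at an unadjusted p under 0.05; both limits added after the data were seen) and 3 to 38 without 1 library: 3 without high_fibre 1 and 38 without control_diet 2. Ly6c1 there turned to −1.24 with at most 2 vascular UMIs. NK shares stayed within their counting intervals in every setting tried. Shares of cells with a UMI rose without thinning for 10 of 11 genes. The causes of these changes were not tested, except that thinning leaves fewer genes. The lone library of a diet was assumed to vary like the others. Depth is limited by 14 NK cells in control_diet 2.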
